A study of Homo sapiens with 3 samples.

Results

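The microRNAs (miRNAs) encoded by the miR-151 hairpins were followed in small RNA libraries of a liver cancer cell line and its subclones. The names hsa-miR-151a-5p, hsa-miR-151a-3p and hsa-miR-151b were taken by name from the tables, 3 of 1921 names listed and of 877 detected in any library. All 3 were detected in every library.

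The libraries came from HCCLM3, an established human hepatocellular carcinoma (HCC) line, grown in DMEM medium, with 1 library for each strain. The parent strain is labelled as having low metastasis. The strain subclone1 is labelled as more metastatic, specifically to the lung, and subclone2 as metastatic to lung and celiac lymph node alike. The study describes clones grown from single cells of lung and lymph node metastases in nude mice, and calls its own parental line, an HCCLM3 derivative with red fluorescent protein, highly metastatic. Which of these clones subclone1 and subclone2 are is not given in the sources used here.

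A miRNA hairpin is cut by Drosha and Dicer into a short duplex, and either strand, named 5p or 3p after its arm, can be loaded into an Argonaute protein to silence mRNAs that match its seed (bases 2 to 8). miR-151a is known in HCC as the intronic miRNA of PTK2, which encodes focal adhesion kinase (FAK), a kinase of cell adhesion and migration. hsa-miR-151a-5p is known to promote migration of liver cancer cells. As catalogued, hsa-miR-151b has the sequence of the beginning of hsa-miR-151a-5p and ends earlier, so both names carry the same seed and a short read may fit either.

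Relatives of miR-151 served for comparison. miR-28 and miR-95 are known to stem from LINE-2 transposable elements like miR-151, and miR-708 resembles miR-28 in sequence. Their mature sequences (RefSeq, GRCh38.p14) are shown because the relatives differ in whether they were found in these cells, together with hsa-miR-342-3p, whose hairpin lies 141 bases from MIR151B. Capitals mark the seed. RefSeq lists hsa-miR-95 as hsa-miR-95-3p. The sequence of hsa-miR-28-5p was missing from the reference used here and is not shown.
hsa-miR-28-3p (chr3:188688834-188688855, plus strand): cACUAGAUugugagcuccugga
hsa-miR-708-3p (chr11:79402032-79402053, minus strand): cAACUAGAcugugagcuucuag
hsa-miR-708-5p (chr11:79402077-79402099, minus strand): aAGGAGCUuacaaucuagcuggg
hsa-miR-95 (chr4:8005312-8005333, minus strand): uUCAACGGguauuuauugagca
hsa-miR-342-3p (chr14:100109715-100109737, plus strand): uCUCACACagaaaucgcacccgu
The 3p arms of miR-28 and miR-708 share a run of 8 bases.

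In the annotation (GENCODE release 29, GRCh38) MIR151A lies on chromosome 8 at 140732564 to 140732653 on the minus strand, a hairpin of 90 bases, on the long arm that is often gained in HCC. All 16 PTK2 transcripts that span this place run on the same strand and hold it in an intron. In 15 of them this intron extends from 140717710 to 140735250, which is 17541 bases. MIR151B lies on chromosome 14 at 100109419 to 100109514, also on the minus strand and 96 bases long. It is intronic in all 8 spanning transcripts of EVL, an actin regulator of the Ena/VASP family, but EVL runs on the opposite strand. The tables hold small RNAs only, so the PTK2 and EVL mRNAs were not measured.

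The total count was between 3570864 (subclone1) and 7902438 (parent). Levels are given as CPM, the count scaled to a file sum of 1000000, with exact 95% Clopper-Pearson intervals. Since the reads carry no molecular identifiers and no group has a second library, intervals cover counting error only, and no difference given here has a replicate check. Of the hepatocyte markers, hsa-miR-122-5p, the leading miRNA of normal liver, had only 3.94 to 6.71 CPM and hsa-miR-885-5p was at 0. hsa-miR-192-5p had 18528 CPM in parent cells, 60246 in subclone1 and 69068 in subclone2, and hsa-miR-194-5p had 108, 271 and 263 CPM. Both were called higher in both subclones than in the parent by the rule given with the ratios, with log2 ratios of 1.70 and 1.90 for hsa-miR-192-5p and of 1.33 and 1.28 for hsa-miR-194-5p. Of 5 blood cell markers, hsa-miR-142-3p and hsa-miR-144-3p were at 0 in all libraries. The summed level of the blood cell list was 0.506 to 1.68 CPM, and that of 2 endothelial markers was 0.438 to 2.24 CPM. The 4 markers of muscle and stroma had 7.44 to 22.4 CPM, most of it hsa-miR-1, with 6.71 CPM in parent cells, 21.6 in subclone1 and 7.01 in subclone2. hsa-miR-1 was called higher in subclone1 than in the parent (log2 ratio 1.68). The part of these levels in the results was not tested.

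The 3p arm was the more abundant product of miR-151a. hsa-miR-151a-3p had 4681 counts in parent cells, 2009 in subclone1 and 2705 in subclone2. This corresponded to 592 CPM in parent cells (95% interval 576 to 610), 563 CPM in subclone1 (538 to 588), with 592 CPM (570.1 to 615) in subclone2. The intervals of all 3 libraries overlapped, and the level in subclone1 was nominally the lowest. hsa-miR-151a-3p ranked 43rd of 743 detected miRNAs in parent cells, 45th of 670 in subclone1 and 42nd of 675 in subclone2.

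hsa-miR-151a-5p, the arm linked to migration, had 2024 counts in parent cells, 977 in subclone1 and 1195 in subclone2. Its level was 256 CPM in parent cells (245 to 268), 274 CPM in subclone1 (257 to 291), with 262 CPM (247 to 277) in subclone2. Again the intervals overlapped, and here subclone1 was nominally the highest. It ranked 61st, 59th and 58th in the parent, subclone1 and subclone2.

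hsa-miR-151b was far less abundant, with 168 counts in parent cells, 49 in subclone1 and 65 in subclone2. Its level was 21.3 CPM in parent cells (18.2 to 24.7), 13.7 CPM in subclone1 (10.2 to 18.1), with 14.2 CPM (10.98 to 18.1) in subclone2. The parent lay above both subclones without overlap of the intervals, by a narrow margin. Differences beyond counting error were common among names averaging 10 CPM or more. The interval of the ratio to the parent excluded 1 for 132 of 192 (68.8%) in subclone1 and 130 of 187 (69.5%) in subclone2. hsa-miR-151b ranked 148th, 177th and 163rd, with 1 other name tied in each subclone. Because its level depends on how reads shared with hsa-miR-151a-5p were assigned, it is uncertain.

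The order of the names was the same in every library, with hsa-miR-151a-3p above hsa-miR-151a-5p and hsa-miR-151b last, and no interval of one name overlapped that of another. A read stands for a whole small RNA, so no length scaling enters, but the ligation steps favour some ends, which limits a comparison between names. The names next to them in the order were mostly level with them, since only 2 of 18 neighbours differed beyond counting error. These were hsa-miR-193b-5p with 528 CPM below hsa-miR-151a-3p in the parent, and hsa-miR-98 with 548 CPM below it in subclone2. Above hsa-miR-151a-3p stood hsa-miR-31-5p in the parent and in subclone2, and hsa-miR-24-3p in subclone1, with hsa-miR-98 next below in subclone1. In the parent, hsa-miR-423-3p followed hsa-miR-151a-5p and hsa-miR-92a-1-5p preceded it. It lay between hsa-miR-92b-5p and hsa-miR-194-5p in subclone1, and between hsa-miR-194-5p and hsa-miR-181d in subclone2. hsa-miR-151b lay between hsa-miR-215 and hsa-miR-30c-5p, between hsa-miR-2110 and hsa-miR-4454, and between hsa-miR-301a-5p and hsa-miR-125b-2-3p in the same libraries.

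**Figure D1:**
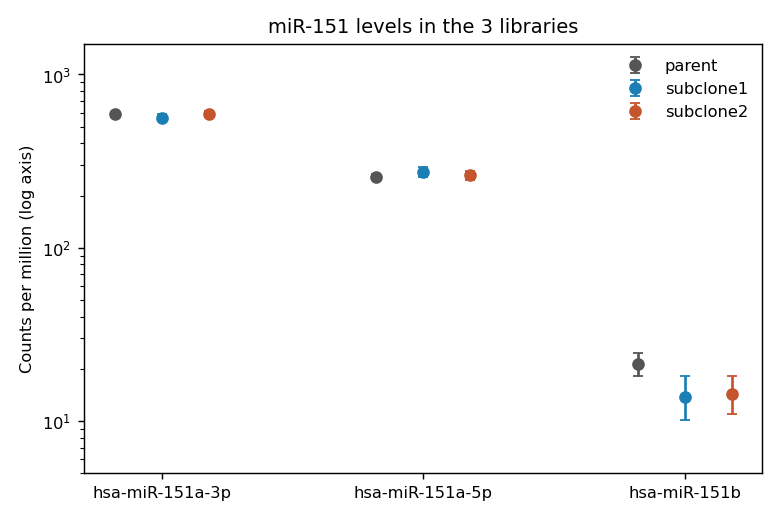
Level of each miR-151 name in CPM (log axis) in the parent, subclone1 and subclone2 libraries, 1 point for each library, with exact 95% intervals for counting error. With this file-sum scaling the intervals of each miR-151a arm overlap across the libraries, while hsa-miR-151b stands at 21.3 CPM in the parent and at 13.7 and 14.2 CPM in the subclones. Under the other scalings hsa-miR-151a-3p varied 1.16- to 1.22-fold.

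To compare miR-151 in the strains labelled as more metastatic with the parent, the ratio between libraries was taken after scaling to the file sum, with 0.5 counts added. Names that averaged 10 CPM or more in the compared libraries were kept. A call required a ratio of 2-fold or more in either direction together with an exact conditional binomial 95% interval that left out 1. None of the 3 names was called in any comparison. Against the parent, 25 of 192 kept names (13.0%) were called in subclone1 and 20 of 187 (10.7%) in subclone2, and 11 of 191 (5.76%) were called between the subclones.

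In subclone1 against the parent, hsa-miR-151a-5p had a log2 ratio of 0.10 (interval -0.016 to 0.21) and hsa-miR-151a-3p of -0.07 (-0.15 to 0.0014). Neither interval excluded a log2 ratio of 0, although those of 132 of 192 kept names (68.8%) did. hsa-miR-151b had a log2 ratio of -0.62 (-1.12 to -0.16), which corresponds to 0.650 times the parent level (0.460 to 0.892). Its interval excluded 0, and 143 of the 192 kept names had a ratio of smaller size.

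In subclone2, hsa-miR-151a-3p differed from the parent by a log2 ratio of -0.00036 (-0.07 to 0.07), smaller in size than that of every other kept name of the 187. The log2 ratio of hsa-miR-151a-5p was 0.03 (-0.07 to 0.13), and 16 names had a smaller one. hsa-miR-151b had a log2 ratio of -0.57 (-1.02 to -0.16), or 0.672 times the parent level (0.495 to 0.896), with 135 names of smaller size. The intervals of 130 of 187 kept names (69.5%) excluded 0, as did that of hsa-miR-151b. The same parent library enters both sets of ratios, so its level in that library is part of both low values of hsa-miR-151b.

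Between the subclones, whose labels differ in lymph node metastasis, no miR-151 interval excluded 0 under file-sum scaling, against 114 of 191 kept names (59.7%) that did. The log2 ratio of subclone2 to subclone1 was -0.06 (-0.19 to 0.06) for hsa-miR-151a-5p, 0.07 (-0.00998 to 0.16) for hsa-miR-151a-3p and 0.05 (-0.50 to 0.62) for hsa-miR-151b. The interval of hsa-miR-151b, on 49 and 65 counts, allowed anything from 0.705 to 1.53 times the level in subclone1. A difference of that size was not detectable at this depth.

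Small ratios of this kind move with the scaling. The median log2 ratio of the kept names was 0.02 in subclone1 against the parent, but -0.15 for subclone2 over the parent, with -0.17 between the subclones. TMM scaling moved these medians by -0.08, 0.11 and 0.19. Read against the median of its comparison, hsa-miR-151a-3p stood at -0.09 (-0.17 to -0.016), 0.15 (0.08 to 0.22) and 0.24 (0.16 to 0.32), and hsa-miR-151a-5p at 0.08 (-0.03 to 0.19), 0.18 (0.08 to 0.29) and 0.10 (-0.02 to 0.22). The sign of hsa-miR-151a-3p in subclone2 and that of hsa-miR-151a-5p between the subclones turned under TMM scaling (0.11 and 0.13), median-of-ratios scaling (0.15 and 0.15) and the total without the 10 most abundant names (0.07 and 0.08), so no direction is given for them. For hsa-miR-151a-3p the intervals under these scalings excluded 0 in every comparison, with log2 ratios of -0.14 to -0.16 in subclone1 against the parent and 0.22 to 0.29 between the subclones, all short of 2-fold. The intervals of hsa-miR-151a-5p also excluded 0 under TMM and median-of-ratios scaling in subclone2 against the parent (0.14 and 0.18) and between the subclones (0.13 and 0.15). hsa-miR-151b against the parent was lower under each of these scalings, with log2 ratios of -0.69 to -0.70 for subclone1 and -0.43 to -0.50 for subclone2. Its interval in subclone2 nearly reached 0 with median of ratios (-0.87 to -0.011). Read against the median, hsa-miR-151b stood at -0.64 (-1.14 to -0.18) in subclone1 and -0.42 (-0.86 to -0.0046) in subclone2.

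How far miR-151a varied over all libraries was set beside the other kept miRNAs, and the place it took depended on the scaling. Scaled to the file sum, from the lowest to the highest library, hsa-miR-151a-3p varied 1.05-fold and hsa-miR-151a-5p 1.07-fold, compared with a median of 1.44-fold over 192 names kept over all libraries. A smaller spread was found for 2 names in the case of hsa-miR-151a-3p and for 6 in the case of hsa-miR-151a-5p. Low counts widen this spread, but among 89 names with a mean of at least 100 CPM the median was still 1.34-fold, and 2 and 5 names had a smaller one. hsa-miR-151b varied 1.55-fold, more than 122 of the 192 names. Under the other 3 scalings hsa-miR-151a-3p varied 1.16- to 1.22-fold and 33 to 48 names varied less, while hsa-miR-151a-5p varied 1.07- to 1.13-fold and 6 to 19 names varied less. These spreads were computed after the data had been seen. Summed over all 3 names, the miR-151 level was 869.7 CPM in parent cells (849 to 891), 849.9 CPM in subclone1 (819.97 to 881), with 868 CPM (841 to 895) in subclone2.

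**Figure D2:**
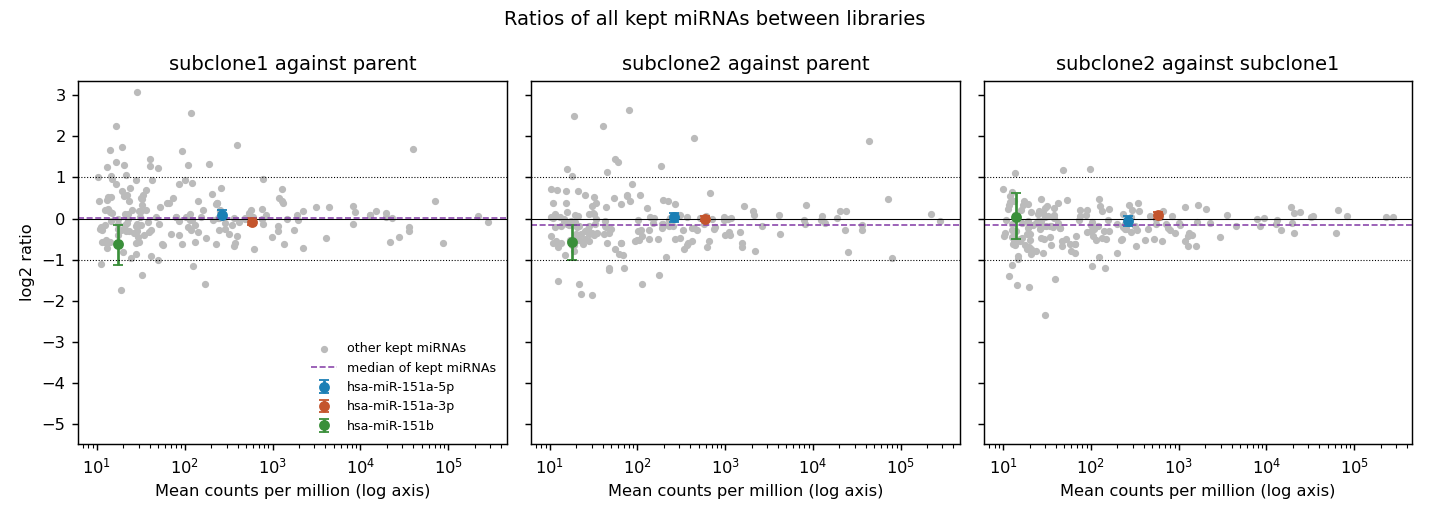
log2 ratio between libraries against mean CPM (log axis), 1 panel for each comparison; grey points are the other kept miRNAs, coloured points the miR-151 names with exact 95% intervals for counting error, dotted lines 2-fold and the dashed line the median of the kept names. The miR-151a arms lie close to 0 in every panel, and hsa-miR-151b lies below 0 against the parent in both subclones (-0.62 and -0.57), with its points inside the 2-fold lines.

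Next, the use of the hairpin arms was examined, in which the scaling cancels. The parent had 2.31 counts of hsa-miR-151a-3p for each of hsa-miR-151a-5p (interval 2.19 to 2.44), subclone1 had 2.06 (1.90 to 2.22) and subclone2 2.26 (2.11 to 2.43). The 3p arm thus held 69.8% of the miR-151a counts in parent cells (68.7 to 70.9), 67.3% in subclone1 (65.6 to 68.96), with 69.4% (67.9 to 70.8) in subclone2. The intervals of the parent and subclone1 overlapped only at their ends, and subclone2 lay close to the parent.

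The change of the arm ratio between libraries was given a Woolf 95% interval. In subclone1 against the parent the 3p to 5p ratio was 0.889 times as large (0.810 to 0.975), a log2 change of -0.17 (-0.30 to -0.04). With hsa-miR-151b counted into the 5p arm this became -0.13 (-0.26 to 0.0056), an interval that no longer excluded 0. Between subclone2 and the parent the log2 change was -0.03 (-0.15 to 0.09), and between the subclones it was 0.14 (-0.009 to 0.29).

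These changes were set beside those of the other hairpins with both arms kept. In subclone1 against the parent, 3 of 33 hairpins (9.09%) had an arm ratio at least 2-fold apart with an interval that excluded 0, and in 19 (57.6%) the interval excluded 0 whatever the size. The miR-151a interval was one of these 19, and 9 hairpins had a change of smaller size. The median size over all 33 was 0.41 on the log2 scale. In subclone2 against the parent, 2 of 32 hairpins (6.25%) were 2-fold apart and 16 (50.0%) had an interval excluding 0, and 1 hairpin changed less than miR-151a. Between the subclones the numbers were 4 of 33 (12.1%) and 20 (60.6%), with 4 hairpins of smaller change. miR-151a was called in no comparison.

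The called hairpins each had an arm with low counts. With both arms at 100 CPM, a level that miR-151a passed, 0 hairpins were called in each comparison. In miR-1307 the 3p to 5p ratio was 138 in parent cells, 17.1 in subclone1 and 72.6 in subclone2. Its 5p arm had 47, 181 and 45 counts. It was called in subclone1 against the parent and between the subclones, and was not kept in subclone2 against the parent. In miR-625, called in subclone1 against the parent and between the subclones, the ratio went from 2.06 (parent) to 0.564 (subclone1) and 1.51 (subclone2). In miR-532, called in both subclones against the parent, it went from 0.0823 in the parent to 0.194 and 0.274. In miR-15b it was 0.144 in parent cells, 0.157 in subclone1 and 0.0659 in subclone2, and subclone2 was called against both others. In miR-361 it was 0.552, 0.385 and 0.896, called between the subclones only. Balanced use of both arms as in miR-151a was common, with 15 of 33 hairpins within 4-fold in the parent and in subclone1 and 17 in subclone2, whereas 9 hairpins were more than 10-fold apart in each library.

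**Figure D3:**
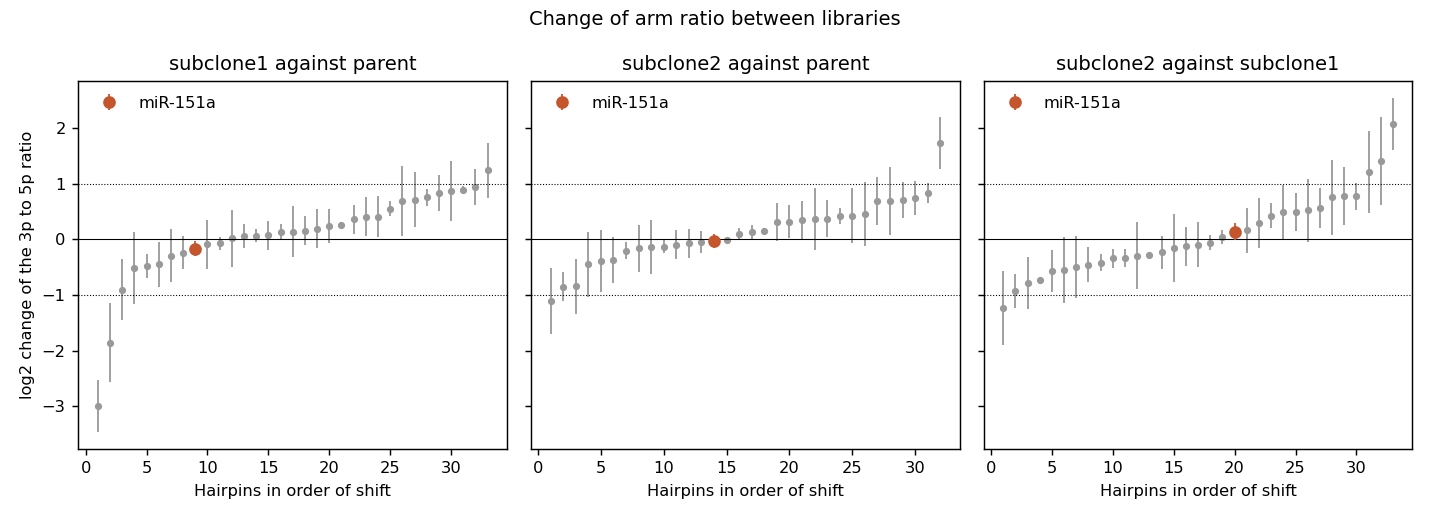
log2 change of the 3p to 5p count ratio between libraries for hairpins with both arms kept, in order of size, 1 panel for each comparison, with Woolf 95% intervals and dotted lines at 2-fold. miR-151a (large point) lies at -0.17, -0.03 and 0.14, inside the 2-fold lines in each panel.

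The split between hsa-miR-151a-5p and hsa-miR-151b had log2 changes of 0.72 (0.25 to 1.19) in subclone1 and 0.60 (0.18 to 1.03) in subclone2 against the parent. For each count of hsa-miR-151b there were 12.0 of hsa-miR-151a-5p in parent cells (10.3 to 14.2), 19.9 in subclone1 (14.96 to 27.1), with 18.4 (14.3 to 24.0) in subclone2. The share of hsa-miR-151b in their sum was 7.66% in parent cells (6.58 to 8.86), 4.78% in subclone1 (3.55 to 6.27), with 5.16% (4.004 to 6.53) in subclone2. The share was higher in the parent than in either subclone, and the intervals of the parent and each subclone did not overlap. Changes beyond counting error were also common in the 3p to 5p ratios of hairpins, although those arms do not share sequence as these names do. The median size of the arm ratio changes against the parent was 0.41 for subclone1 and 0.37 for subclone2 on the log2 scale. Against the parent, arm ratio intervals excluded an unchanged ratio in 57.6% of hairpins for subclone1 and 50.0% for subclone2.

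The a to b ratio was 1.64 times as large in subclone1 as in the parent (Woolf interval 1.19 to 2.28) and 1.52 times as large in subclone2 (1.13 to 2.04), again with a shared parent. Between the subclones it was 0.924 times as large (0.633 to 1.35). When both a arms were set against hsa-miR-151b, the ratios to the parent were 1.52 (1.10 to 2.09) and 1.496 (1.12 to 1.996). Summed, hsa-miR-151a-5p and hsa-miR-151b stood at 277 CPM in parent cells (266 to 289), 287 in subclone1 (270.01 to 305), with 276 (261 to 291) in subclone2, so the difference in hsa-miR-151b was small beside the total of both names.

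How reads that fit several names were counted is not given in the sources used here. Among 280 names with a sequence and at least 30 counts, 5 pairs had one mature sequence whole within the other. In 3 of these the sequences were identical and so were the counts in all libraries. hsa-miR-550a-3-5p lies within hsa-miR-550a-5p and had 38, 26 and 31 counts against 39, 27 and 32. hsa-miR-1268a lies within hsa-miR-1268b, and its counts of 549, 477 and 427 differed from the 677, 562 and 579 of the longer name. With 2024 counts of hsa-miR-151a-5p in the parent against 168 of hsa-miR-151b, at most 168 reads there can have been counted under both names. The sums and shares given for these names treat their counts as separate reads, so any read counted under both enters them more than once.

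**Figure D4:**
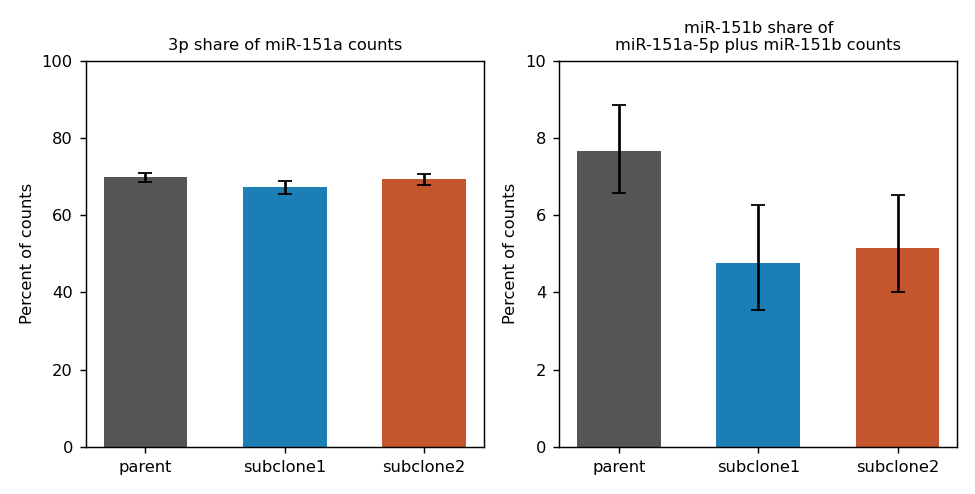
Share of the 3p arm in the miR-151a counts (left, axis to 100%) and of hsa-miR-151b in the summed counts of hsa-miR-151a-5p and hsa-miR-151b (right, axis to 10%), 1 bar for each library, with exact 95% intervals for counting error. The 3p share stays between 67.3% and 69.8%, and the hsa-miR-151b share is 7.66% in the parent and 4.78% and 5.16% in the subclones.

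Of the 5 names of LINE-2 relatives, 2 were kept and 0 were called in any comparison. Over all kept names 13.0% and 10.7% were called against the parent in subclone1 and subclone2, and 5.76% between the subclones. With 2 kept names, 0 calls does not set the relatives apart from these shares. hsa-miR-28-3p had 152 CPM in parent cells (144 to 161), 157 in subclone1 (144 to 170.1), with 153 (142 to 165) in subclone2. Its log2 ratios to the parent were 0.04 (-0.11 to 0.19) and 0.0079 (-0.13 to 0.14). hsa-miR-28-5p had 33.9 CPM (29.97 to 38.2), 30.5 (25.1 to 36.8) and 26.7 (22.2 to 31.9) in the parent, subclone1 and subclone2. Its log2 ratios were -0.15 (-0.49 to 0.17) and -0.34 (-0.67 to -0.03).

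As in miR-151a the 3p arm led in miR-28, with a 3p to 5p ratio of 4.49 in parent cells, 5.13 in subclone1 and 5.73 in subclone2. hsa-miR-95 had 4, 4 and 14 counts and was below the 10 CPM minimum, so the call rule was not applied to it. Its level was 0.506 CPM in parent cells (0.138 to 1.30), 1.12 in subclone1 (0.305 to 2.87), with 3.06 (1.68 to 5.14) in subclone2. Both arms of miR-708 were at 0 in all libraries, which allows up to 0.380 CPM in parent cells, 0.840 in subclone1 and 0.657 in subclone2 (3 counts of the total). The median log2 ratio of the kept relatives was -0.05 in subclone1 and -0.17 in subclone2 against the parent, beside 0.02 and -0.15 for all kept names.

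Neighbours on the chromosomes were compared next. Of 83 other names with a hairpin on chromosome 8, 31 were detected and 5 were kept in each comparison, of which 0 were called. Of all kept names 13.0%, 10.7% and 5.76% were called, so 0 of 5 does not set these names apart. The median log2 ratio of the 5 names was 0.19 in subclone1 and 0.18 in subclone2 against the parent, beside 0.02 and -0.15 for all kept names. The subclone1 median is the value of hsa-miR-30d-5p, and the subclone2 median is that of hsa-miR-320a, 118 Mb from MIR151A. Of the 5 kept names, only 2 lay within 10 Mb of MIR151A, both about 5.93 Mb away. hsa-miR-30d-5p had 2085 CPM in parent cells, 2377 in subclone1 and 2220 in subclone2, a log2 ratio of 0.19 (0.15 to 0.23) and 0.09 (0.05 to 0.13). hsa-miR-30b-3p had 20.1, 26.9 and 29.8 CPM, with log2 ratios of 0.42 (0.04 to 0.79) and 0.57 (0.22 to 0.90). Both names were nominally higher in the subclones than in the parent.

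The other kept names of chromosome 8 lie farther off. hsa-miR-320a, 118 Mb from MIR151A and the most abundant of them, had 22572, 22770 and 25541 CPM. hsa-miR-486-5p had log2 ratios of -0.72 (-1.32 to -0.19) and -0.09 (-0.53 to 0.34), and hsa-miR-548a-3p, which is made from several hairpins, of 0.84 (0.38 to 1.29) and 0.68 (0.24 to 1.12). In subclone1 the log2 ratios of the 5 names thus ran from -0.72 to 0.84.

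Within 1 Mb of MIR151B, 78 other names were listed and only hsa-miR-342-3p was kept. It had 29.99 CPM in parent cells, 27.4 in subclone1 and 26.3 in subclone2, with log2 ratios to the parent of -0.12 (-0.48 to 0.22) and -0.19 (-0.52 to 0.13), and it was not called. The remaining 77 names, of which 31 were detected, together had 13.0 CPM in parent cells (10.6 to 15.8), 26.0 in subclone1 (21.02 to 31.9), with 20.1 (16.2 to 24.7) in subclone2. Scaled to the file sum, this sum was nominally higher in both subclones, with intervals above that of the parent. There hsa-miR-151b was nominally lower with ratio intervals that excluded 0, and hsa-miR-342-3p with ratio intervals that included 0.

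**Figure D5:**
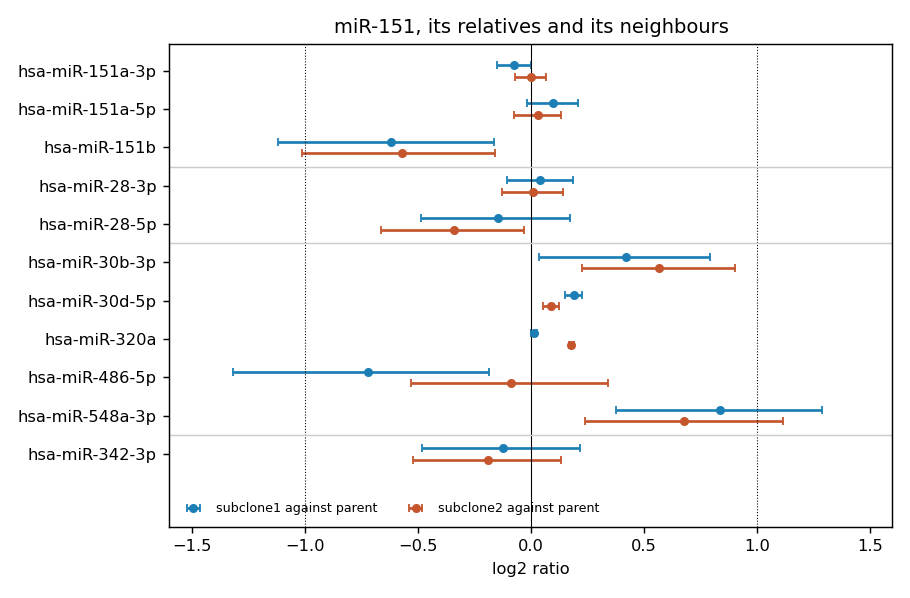
log2 ratio of subclone1 and of subclone2 to the parent for the miR-151 names, the kept LINE-2 relatives, the kept names of chromosome 8 and the kept neighbour of MIR151B, from top to bottom, with exact 95% intervals for counting error and dotted lines at 2-fold. hsa-miR-28-3p lies near 0 like the miR-151a arms, and the names of chromosome 8 spread from -0.72 to 0.84 in subclone1.

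Finally, the kept names with the most similar pattern were sought, by the Euclidean distance between the pairs of log2 ratios to the parent over 3 libraries and 191 other names. Nearest to hsa-miR-151a-5p were hsa-let-7e-5p (distance 0.02), hsa-miR-29a-3p (0.04) and hsa-miR-24-3p (0.05), and 11 names lay within 0.1. Nearest to hsa-miR-151a-3p were hsa-miR-2110 (0.03), hsa-let-7f-5p (0.05) and hsa-miR-125b-5p (0.08), with 5 names within 0.1. Nearest to hsa-miR-151b were hsa-miR-374a-3p (0.02), with 112, 73.1 and 75.96 CPM, hsa-miR-335-5p (0.05) and hsa-miR-4467 (0.06), with 4 names within 0.1. All of these distances are inside counting error, those of hsa-miR-151b and hsa-miR-2110 well inside it, so the order of the nearest names is not resolved. In subclone1 against the parent, the log2 interval of hsa-miR-151a-5p was -0.016 to 0.21 and that of hsa-miR-151a-3p was -0.15 to 0.0014.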

How the data were processed

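Total RNA was isolated with Trizol from 3 HCCLM3 strains, and 1 ug entered the Illumina TruSeq Small RNA kit. The authors deposited raw read counts for each mature miRNA name, with 1 library per strain. The submitters' processing notes name CASAVA 1.4 and hg19. Adapter trimming, the aligner, the miRBase release and the treatment of reads that fit several names are not given in the sources used here, and an aligner that keeps or drops such reads would change the level of hsa-miR-151b.

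Counts were scaled to the file sum (CPM). Having 1 library per group, the design allows no test, so p-values are absent. Exact binomial and Woolf 95% intervals were computed with scipy 1.17.1 and TMM factors with edgeR 4.0.16 over 192 names. Arm pairs were names that differ only in 5p and 3p. Positions come from GENCODE release 29 and RefSeq (GRCh38), where 1891 of 1921 names were placed, and not from the tables. The call rule and the intervals were tried on data simulated with counting error only, which is the error the intervals assume. That trial could not show how they behave under variation between replicate libraries. The members and lists were chosen with earlier results of these data known. Named miRNAs were the 3 members, kept list members, hairpins with a called arm shift, level neighbours, the 3 nearest patterns and contained pairs. The list of names sharing a seed with miR-151 was not analysed here, and sequences of the miR-151 names are not printed. Alternatives covered scaling, pseudocount, minimum level, fold and summed names.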

Additional observations from a re-analysis of the deposited data

How the results depend on the processing

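No paired analysis was possible because the strains have 1 library apiece, which also precludes leaving a library out. Of the miR-151 names, 0 were called under any scaling, minimum, pseudocount or the 4-fold threshold. The 4-fold threshold and the changed minimum could not add a call for these names, and a minimum of 100 CPM left hsa-miR-151b out. At 1.5-fold hsa-miR-151b was among the 56 of 192 kept names called in subclone1 against the parent. In subclone2, with a similar log2 ratio of -0.57, it was not among the 50 of 187 called.

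Scaling moved the log2 ratio of hsa-miR-151a-5p outside its counting interval in subclone2 against the parent (0.14 with TMM, 0.18 with median of ratios) and between the subclones (0.13, 0.15 and, without the 10 most abundant names, 0.079). For hsa-miR-151a-3p the values were -0.16 with TMM in subclone1, 0.11, 0.15 and 0.072 in subclone2, and 0.27, 0.29 and 0.22 between the subclones, in the same order of scalings. The number of kept names that varied less than hsa-miR-151a-3p over the libraries was 42 with TMM, 48 with median of ratios and 33 without the most abundant names, against 2 with the file sum (scalings chosen for this count after seeing the data). With hsa-miR-151a-5p and hsa-miR-151b summed, the log2 ratio was 0.051 in subclone1 and -0.0079 in subclone2, outside the intervals of hsa-miR-151b alone. With all names summed it was -0.033 and -0.0028, outside those of hsa-miR-151b and, in subclone1, of hsa-miR-151a-5p.

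The number of names called followed the thresholds by construction. In subclone1 against the parent it was 7 at 100 CPM, 67 with no minimum, 56 at 1.5-fold and 3 at 4-fold. In subclone2 it was 5, 75, 50 and 3, and between the subclones 2, 33, 36 and 1. Hairpins with a shifted arm ratio numbered 0 in each comparison with both arms at 100 CPM. At 1 CPM they were 11, 11 and 9, and at 1.5-fold 11, 9 and 10.

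List medians rested on few names. With no minimum the median near MIR151B was 0.83 in subclone1 and 0.66 in subclone2. Between the subclones the median without a minimum was -0.71 for chromosome 8 and -0.36 within 10 Mb of MIR151A, and with TMM it was 0.22 there and 0.080 for the LINE-2 relatives. The names added without a minimum had low counts. Depth limits hsa-miR-151b most, which had 49 to 168 counts.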
